A study of Mus musculus with 6 samples.

Results

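Alpha and beta tubulin assemble as a dimer, and these dimers polymerise into the microtubules of the spindle, the cytoskeleton and the cilium. Both subunits are encoded by small gene families whose products, the isotypes, are nearly identical in the body of the protein and differ mainly in the acidic tail on the microtubule surface. In 13.5 days post coitum (dpc) mouse ovaries, 10 of these genes were described out of 48709 genes counted. They were chosen by symbol, as Tuba3a and Tuba3b, which are known for their expression in the testis, beside the more general alpha isotypes Tuba1a, Tuba1b, Tuba1c and Tuba4a and the beta isotypes Tubb2b, Tubb3, Tubb4b and Tubb5.

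Pregnant wild-type CD1 dams received acetaminophen (APAP, 30 mg/kg per day) together with ibuprofen (IBU, 15 mg/kg per day), or ethanol as the control, from 10.5 dpc until their embryos were collected at 13.5 dpc. Each library was made from a pool of ovaries of several embryos, with 3 control and 3 APAP+IBU libraries of stranded polyadenylated RNA, so that a value is a mean over embryos and over all cell types of the gonad. In such bulk RNA, fewer cells of one type and less RNA per cell cannot be told apart. The titles of the exposed samples name ibuprofen alone, while their exposure label names both drugs.

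Total counts ran from 37811968 to 48954631 per library, and all 10 members passed the expression filter. The summed level of 16 liver markers was 276, 588 and 2115 CPM (counts scaled to the TMM-normalised library total) in control replicates 1, 2 and 3 and 204, 416 and 3427 CPM in the same replicates of APAP+IBU ovaries, so replicate 3 of each group stood apart. Germ cell markers (6 genes, 903 to 1143 CPM) and ovarian somatic markers (6 genes, 339 to 602 CPM) were present in every library, and none of them was at 0 in all libraries, although Foxl2, a defining factor of the ovarian somatic lineage, was low at 0.944 to 8.16 CPM. The tests of the members are therefore given for all 6 libraries and for replicates 1 and 2 of each group alone. That subset was chosen with earlier results of these data known. Levels and shares are given for each library or as means of 3.

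A newly made tubulin chain starts with the residues MREC in alpha and MREI in beta tubulin, the tag through which cells are known to degrade tubulin mRNA when free tubulin is abundant. The start of each coding sequence (GENCODE M21) is shown because it encodes this tag in every member, in 6 different spellings. The capitals mark the codons after the start codon.
Tuba3a and Tuba3b: atgCGTGAGTGT
Tuba1a, Tuba1b and Tuba1c: atgCGTGAGTGC
Tuba4a: atgCGCGAGTGC
Tubb2b: atgCGAGAGATC
Tubb3 and Tubb4b: atgAGGGAGATC
Tubb5: atgAGGGAAATC

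At the opposite end the last 45 coding bases encode the 15 residues of the tail, of which 7 to 10 are acidic, and they are shown for 8 members with the last codon in capitals. In alpha tubulin this codon usually encodes tyrosine, which enzymes remove and add back.
Tuba3a and Tuba3b: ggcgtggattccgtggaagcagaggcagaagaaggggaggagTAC
Tuba1c: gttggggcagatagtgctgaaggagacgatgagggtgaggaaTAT
Tuba4a: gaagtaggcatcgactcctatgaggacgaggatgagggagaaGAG
Tubb2b: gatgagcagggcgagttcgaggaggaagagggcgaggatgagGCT
Tubb3: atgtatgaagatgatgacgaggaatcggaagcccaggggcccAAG
Tubb4b: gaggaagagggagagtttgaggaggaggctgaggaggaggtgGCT
Tubb5: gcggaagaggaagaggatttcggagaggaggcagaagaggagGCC
Of the alpha members only Tuba4a does not end in tyrosine, and it ends in glutamate. Tubb3 ends in lysine, whereas the other beta members end in alanine.

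Tuba3a and Tuba3b differ at 41 coding positions (97.0% identity) and encode proteins that are 100% identical, so that only their nucleotide sequences tell them apart. Tuba1a and Tuba1b differ at 23 coding positions (98.3% identity) and at 2 residues. The protein of Tubb3 is 90.9% to 91.6% identical to those of Tubb2b, Tubb4b and Tubb5, which are 95.7% to 97.5% identical to each other.

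This likeness bears on how far a read can be assigned to one gene. Of the 50-base windows along the longest coding transcript, the share found in no other annotated gene was 16.9% for Tuba1b, 24.5% for Tuba1a, 39.0% for Tuba1c, 64.7% for Tuba3a and 70.5% for Tuba3b. Among the other members it was 44.5% for Tubb4b, with 43.6% shared with the pseudogene Tubb4b-ps1, 51.2% for Tuba4a, with 47.7% shared with Stk16, 60.7% for Tubb2b, 99.9% for Tubb5 and 100% for Tubb3. Levels of the 3 Tuba1 genes, and the split between them, are therefore uncertain, and those of Tubb3 and Tubb5 rest on their own sequence. The libraries were sequenced as paired 50-base reads, and a pair can be placed by either end. Single windows can therefore understate how much of a gene was assignable. The 3' end of Tuba4a overlaps Stk16 on the opposite strand over 1379 bases, and since the strand setting of the counting is not given, reads of the pair may not have been kept apart.

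Tubb5, a beta isotype of most dividing cells, was the most abundant member per length of exon. Its level in control ovaries was 558 ± 91.4 RPKM (CPM per kilobase of exon, SD, n = 3), followed by Tuba1b at 219 ± 44.1, Tuba3a at 116 ± 40.2, Tuba1a at 113 ± 34.4 and Tubb4b at 91.8 ± 17.96 RPKM. The order went on with Tubb2b (31.8 ± 6.54 RPKM), Tuba1c (23.1 ± 6.38), Tuba3b (21.9 ± 6.56), Tuba4a (7.64 ± 1.09) and Tubb3 (4.58 ± 0.773). The ranges of the 3 control libraries overlapped between the neighbours Tuba3a and Tuba1a, Tuba1a and Tubb4b, Tubb2b and Tuba1c, and Tuba1c and Tuba3b, and did not overlap between the other neighbours. In APAP+IBU ovaries the order was the same except that Tuba3b (20.3 ± 2.05 RPKM) stood above Tuba1c (14.4 ± 4.63 RPKM), with overlapping ranges.

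Tuba3a (ENSMUSG00000067702) lies on the minus strand of chromosome 6 from 125278274 to 125286042 (GRCm38, the same assembly as mm10) and has 5 exons. Tuba3b (ENSMUSG00000067338) lies on the plus strand of the same chromosome from 145615757 to 145621479, also with 5 exons. The 120 bases before the RefSeq start of each (build GRCm38.p6) are shown because these promoters belong to the same protein. For Tuba3b these bases lie inside the GENCODE M21 gene given above, so they precede only the RefSeq start. The capitals mark CCAAT and the GC box GGGCGG, both searched on either strand.
Tuba3a, chr6:125286082-125286201, minus strand: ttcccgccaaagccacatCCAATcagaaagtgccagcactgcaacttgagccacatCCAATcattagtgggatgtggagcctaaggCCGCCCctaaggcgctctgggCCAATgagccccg
Tuba3b, chr6:145615843-145615962, plus strand: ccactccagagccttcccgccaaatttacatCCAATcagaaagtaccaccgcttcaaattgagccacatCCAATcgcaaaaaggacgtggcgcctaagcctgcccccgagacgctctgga
CCAAT starts 102, 64 and 13 bases before the RefSeq start in Tuba3a and 89 and 51 bases before it in Tuba3b. In both genes a pair lies 38 bases apart. RefSeq promoters of 300 bases (250 before and 50 after the start) matched 9 of the 10 members. That of Tuba4a (75219245 to 75219544) lies wholly inside its GENCODE M21 gene, which runs to 75219865 on the minus strand. Before their RefSeq starts, the promoters of Tuba1a, Tuba1b, Tubb3 and, by a few bases, Tubb5 also lie partly inside their GENCODE M21 genes. Some of the matches counted here therefore lie within an annotated gene. CCAAT was present in 7 of these 9 promoters, and in 4 of them at least 2 times, against 37.4% and 11.7% of 32851 promoters of the same length. The GC box was present in 7 of 9 against 35.7%. TATAAA was present in 1 of 9 (Tubb4b, at position 19 after the start and not before it) against 13.6%. TGACGTCA, the cyclic AMP response element, was present in 0 of 9 against 1.79%. Such matches are letters in a window and not shown to be bound.

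Both testis-linked genes were expressed in these fetal ovaries, and for both the exposed libraries lay within the range of the controls. Tuba3a was at 225, 193 and 108 CPM in control replicates 1, 2 and 3 and 129, 164 and 152 CPM in the same replicates of APAP+IBU ovaries. Control replicate 3 was the lowest of all 6 libraries and control replicates 1 and 2 were the highest. For Tuba3a edgeR's quasi-likelihood test put the log2 fold change (APAP+IBU over control) at -0.25 with all 6 libraries (standard error 0.25, adjusted p = 0.760). With replicates 1 and 2 alone it fell by 0.50 on the log2 scale (standard error 0.13, adjusted p = 0.0317). That call was lost, at -0.01 (adjusted p = 0.957), once a correction for the GC content and length of genes was made in each library (the length and GC correction), and over 6 libraries the corrected value turned to 0.04.

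The level of Tuba3b was 45.1, 46.0 and 25.4 CPM in the controls and 34.3, 40.2 and 33.7 CPM in the exposed ovaries. As for Tuba3a, the exposed values lay inside the control range and control replicate 3 was lowest. For Tuba3b the log2 fold change was -0.11 (standard error 0.23, adjusted p = 0.881) over 6 libraries and -0.27 (standard error 0.11, adjusted p = 0.114) with replicates 1 and 2, and the length and GC correction turned the latter to 0.17 (adjusted p = 0.326). Tuba3a stood 4.41 to 5.88 times above Tuba3b per length of exon in each of the 6 libraries.

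The sum of markers of spermatids, the late male germ cells, separated the groups, and the levels of Tuba3a and Tuba3b overlapped. The summed level of 20 spermatid markers was 188, 64.1 and 62.6 CPM in the controls and 15.7, 10.8 and 12.5 CPM in exposed ovaries, and 17 of the 20 were lower in every exposed than in every control library, as were 5.92% of the 20167 tested genes. Prm1, a protamine that packs sperm DNA, had 35.9, 7.66 and 5.71 CPM in controls and 0.789, 0.197 and 0.260 CPM in exposed ovaries. The 6 testis somatic markers summed to 37.9, 36.7 and 19.9 CPM in controls and 20.5, 16.5 and 18.2 CPM after exposure, and no marker of either list was at 0 in all libraries. Between the replicate 3 libraries the spermatid sum was lower after exposure (62.6 and 12.5 CPM) and Tuba3a was higher (108 and 152 CPM). The source of these marker RNAs, and its part in the Tuba3a and Tuba3b levels, were not tested.

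**Figure D1:**
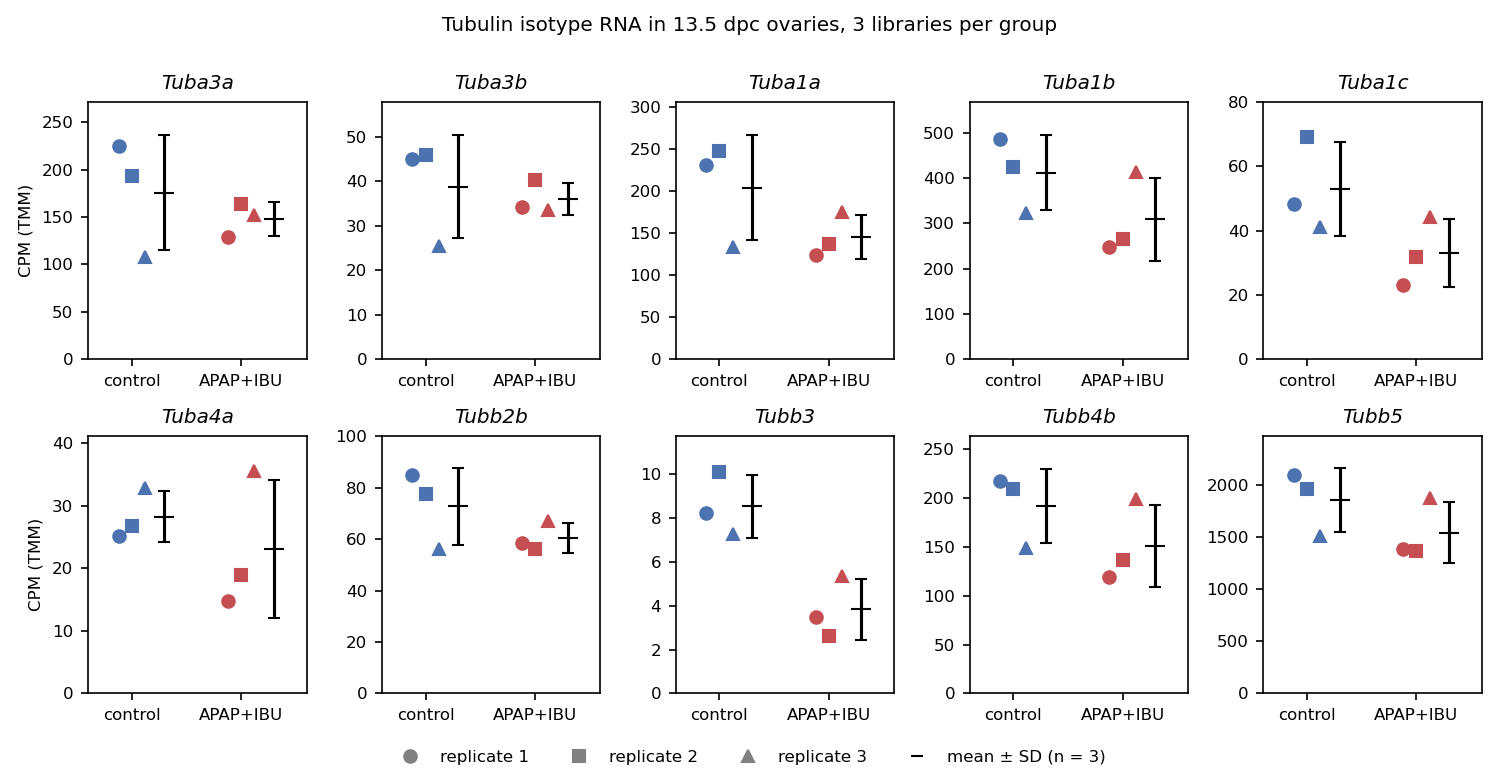
Level of each of the 10 members in CPM (TMM normalised, linear axis from 0) in the 3 control and 3 APAP+IBU libraries, with the mean and SD of each group beside the points. Control replicate 3 is the lowest control for 9 members, APAP+IBU replicate 3 the highest exposed library for 8, and only for Tubb3 do the groups not overlap.

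The 3 genes of the Tuba1 group lie within one stretch of chromosome 15, Tuba1b (ENSMUSG00000023004) at 98931425 to 98934565 and Tuba1a (ENSMUSG00000072235) at 98949837 to 98953703, both on the minus strand, and Tuba1c (ENSMUSG00000043091) at 99029891 to 99038110 on the plus strand, with 4 exons each. Tuba1a is the main alpha isotype of the developing brain, and Tuba1b and Tuba1c are widely expressed. Tuba1a was at 231, 248 and 133 CPM in controls and 124, 137 and 175 CPM in exposed ovaries. In replicates 1 and 2 every exposed value was below every control value, and replicate 3 had the opposite order. Its log2 fold change was -0.49 (standard error 0.24, adjusted p = 0.692) over 6 libraries, and with replicates 1 and 2 Tuba1a fell by 0.86 (standard error 0.09, adjusted p = 0.00623). With only control replicate 3 left out Tuba1a fell by 0.72 (adjusted p = 0.0460), the only member called in any fit that left out a single library.

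Tuba1b, the most abundant alpha member, was at 487, 425 and 323 CPM in controls and 248, 266 and 415 CPM in exposed ovaries. Exposed replicate 3 again lay among the controls, and the other 2 exposed libraries were below all of them. For Tuba1b the log2 fold change was -0.41 (standard error 0.24, adjusted p = 0.692) over 6 libraries, and with replicates 1 and 2 it fell by 0.81 (standard error 0.10, adjusted p = 0.00625). Tuba1c was at 48.3, 69.2 and 41.1 CPM in controls and 23.1, 31.7 and 44.1 CPM in exposed ovaries, with the same overlap through replicate 3. Its log2 fold change was -0.68 (standard error 0.27, unadjusted p = 0.0372, adjusted p = 0.692) in edgeR's test over 6 libraries, and with replicates 1 and 2 Tuba1c fell by 1.08 (standard error 0.21, adjusted p = 0.0117). After the length and GC correction of replicates 1 and 2, Tuba1a (-0.52, adjusted p = 0.0168) and Tuba1b (-0.40, adjusted p = 0.0350) were still called, and Tuba1c was not (-0.71, adjusted p = 0.0528).

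Tuba4a (ENSMUSG00000026202), the alpha gene with no tyrosine at its end, lies on the minus strand of chromosome 1 from 75214228 to 75219865. Its level was 25.2, 26.8 and 32.8 CPM in controls and 14.8, 19.0 and 35.6 CPM in exposed ovaries. Unlike the other members, Tuba4a had its highest control value in replicate 3, and the highest of all 6 in exposed replicate 3. Over 6 libraries its log2 fold change was -0.29 (standard error 0.31, adjusted p = 0.764), and with replicates 1 and 2 Tuba4a fell by 0.60 (standard error 0.15, adjusted p = 0.0263), a call lost after the length and GC correction (-0.50, adjusted p = 0.0557).

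Of the beta members, Tubb5 (ENSMUSG00000001525; chromosome 17, minus strand, 35833921 to 35838306) had 2095, 1962 and 1515 CPM in controls and 1388, 1364 and 1877 CPM in exposed ovaries. The first 2 exposed libraries were below all controls and the third lay among them. For Tubb5 the log2 fold change was -0.27 (standard error 0.19, adjusted p = 0.700) over 6 libraries, and with replicates 1 and 2 it fell by 0.54 (standard error 0.10, adjusted p = 0.0102). Tubb4b (ENSMUSG00000036752; chromosome 2, minus strand, 25222160 to 25224702), a general isotype that is also found in cilia, had 218, 209 and 149 CPM in controls and 119, 136 and 198 CPM in exposed ovaries. Its groups overlapped in the same way. In Tubb4b the log2 fold change was -0.34 (standard error 0.23, adjusted p = 0.699) over 6 libraries, and with replicates 1 and 2 it fell by 0.72 (standard error 0.10, adjusted p = 0.00632). Both calls remained after the length and GC correction, at -0.44 for Tubb5 (adjusted p = 0.0410) and -0.37 for Tubb4b (adjusted p = 0.0406).

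Tubb2b (ENSMUSG00000045136; chromosome 13, minus strand, 34126748 to 34130466) is best known from the developing brain. It had 84.8, 77.7 and 56.0 CPM in controls and 58.3, 56.2 and 67.1 CPM in exposed ovaries. Here control replicate 3 was the lowest of all 6 libraries, only just below exposed replicate 2. The log2 fold change of Tubb2b was -0.27 (standard error 0.17, adjusted p = 0.698) over 6 libraries, and with replicates 1 and 2 it fell by 0.48 (standard error 0.10, adjusted p = 0.0129), a call lost after the length and GC correction (-0.31, adjusted p = 0.0603).

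Tubb3 (ENSMUSG00000062380; chromosome 8, plus strand, 123411424 to 123422015), the isotype of neurons, was the rarest member and showed the largest difference of the 10. Its level was 8.26, 10.1 and 7.28 CPM in controls, from counts of 315, 378 and 316, and 3.51, 2.64 and 5.36 CPM in exposed ovaries, from counts of 178, 121 and 206. Tubb3 was the only member whose exposed libraries all lay below all controls, replicate 3 included, against the same 5.92% of tested genes. Over 6 libraries edgeR put the log2 fold change of Tubb3 at -1.16 (standard error 0.29) with an unadjusted p of 0.00424 and an adjusted p of 0.416. The exact two-sided permutation test of Tubb3 gave p = 0.1, the smallest that 3 against 3 libraries allow. DESeq2, run on the same 6 libraries, called Tubb3 (log2 fold change -1.16, standard error 0.29, adjusted p = 0.0148) and no other member. With replicates 1 and 2 Tubb3 fell by 1.55 in edgeR's test (standard error 0.24, adjusted p = 0.00717), and by 1.05 after the length and GC correction (adjusted p = 0.0318).

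The sum of neuron markers was lower in exposed ovaries, as was Tubb3. The summed level of 14 neuron markers was 60.4, 96.0 and 82.6 CPM in controls and 42.5, 33.6 and 53.2 CPM in exposed ovaries, with no overlap, and 4 of the 14 (Gap43, Nefl, Nefm and Prph, named after their values were seen) were lower in every exposed than in every control library, against 5.92% of tested genes. Nefm, the medium neurofilament chain, had 26.0, 26.3 and 32.8 CPM in controls and 10.5, 7.88 and 8.41 CPM in exposed ovaries. Nefm was the largest part of the sum in each control library, and without Nefm the sums of the groups overlap. The log2 fold change of Nefm over 6 libraries was -1.67 (standard error 0.18, adjusted p = 0.0906), the lowest on this list. With replicates 1 and 2 Nefm fell by 1.48 (adjusted p = 0.00623). None of the 14 neuron markers was at 0 in all libraries. The part of neurons in the Tubb3 level was not tested.

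**Figure D2:**
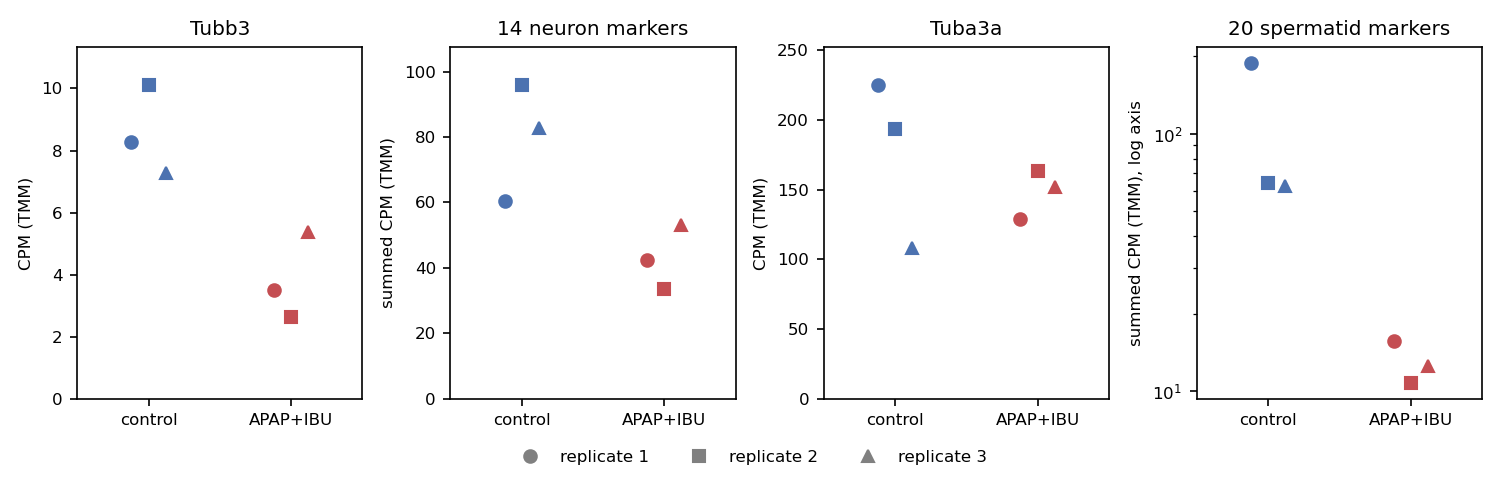
Levels in CPM (TMM normalised) of Tubb3, of the sum of 14 neuron markers, of Tuba3a and of the sum of 20 spermatid markers in the 3 control and 3 APAP+IBU libraries; the last panel has a log axis, the others start at 0. Tubb3 separates the groups, at 7.28 CPM or more against 5.36 or less. The neuron sum does so at 60.4 CPM or more against 53.2 or less, but only with Nefm included. The groups overlap in Tuba3a and do not overlap in the spermatid sum.

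The genes whose pattern over the 6 libraries was most like that of 3 members were named by the Pearson correlation of log2 CPM with 16062 other genes. These values describe 6 points that share library composition and depth. For Tuba3a they were Mepce (r = 0.999), Il11ra1 (0.999) and Lsr (0.998). For Tuba3b they were Mrnip (0.998), Paqr7 (0.996) and Qsox1 (0.994), and for Tubb3 they were Ncs1 (0.998), Gtf3c6 (0.993) and Copz1 (0.993).

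As a group, 0 of the 10 members were called over all 6 libraries (edgeR, adjusted p under 0.05), against 0% of 20167 tested genes. Of these genes 1254 had an unadjusted p under 0.05, and DESeq2 called 236. At that unadjusted limit 2 members (Tubb3 and Tuba1c) were lower, against 3.21% of all tested genes. All 10 had a negative log2 fold change, with a median of -0.32 against -0.0047 for all tested genes. In exact permutation tests of the single members over 6 libraries p ran from 0.1 for Tubb3 to 0.9 for Tuba3b.

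With replicates 1 and 2 alone, 9 of the 10 members were called lower, all but Tuba3b, while 12.9% of 20633 tested genes were called lower and 14.2% higher. The median log2 fold change of the members was then -0.66, against -0.0032 for all tested genes. In all 10 members both exposed libraries lay below both controls, an arrangement that 35.5% of all tested genes showed. Erythroid markers moved in the same direction in these 4 libraries, summing over 11 genes to 7014 and 17157 CPM in controls and 3172 and 5378 CPM in exposed ovaries, with 6 of the 11 called lower and 0 higher. Of the 6 germ cell markers 3 were called lower and 2 higher. The part of either cell type in the tubulin levels was not tested. After the length and GC correction 5 members were called lower (Tuba1a, Tuba1b, Tubb3, Tubb4b and Tubb5), against 7.61% of tested genes, and the median was -0.42. Pearson correlations of log2 CPM between members over all 6 libraries ran from -0.28 (Tuba3b with Tuba4a) to 0.987 (Tuba1b with Tubb4b). The calls of the members are therefore not independent of each other.

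Replicate 3 ran the other way. In 9 of the 10 members, all but Tubb3, the exposed library lay above the control library, as it did in 50.7% of tested genes. The ratio of exposed to control replicate 3 was 1.41 for Tuba3a, 1.33 for Tubb4b, 1.32 for Tuba3b, 1.31 for Tuba1a and 1.28 for Tuba1b. It was 1.24 for Tubb5, 1.20 for Tubb2b, 1.08 for Tuba4a and 1.07 for Tuba1c, and 0.737 for Tubb3. The same 2 libraries had the highest liver marker sums, and the part of liver RNA in this reversal was not tested.

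**Figure D3:**
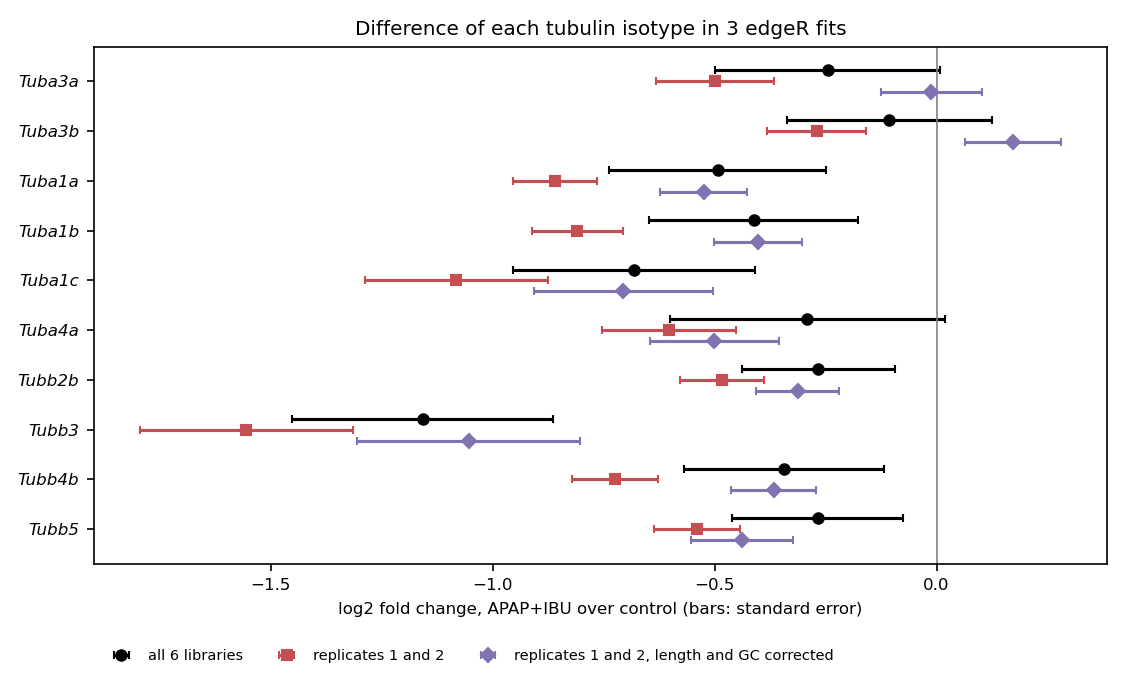
Log2 fold change of each member (APAP+IBU over control; bars are standard errors) in edgeR fits to all 6 libraries, to replicates 1 and 2 of each group, and to replicates 1 and 2 after the length and GC correction. All members lie below 0 in the first 2 fits, Tubb3 lies farthest at -1.16 and -1.55, and the correction brings Tuba3a to -0.01 and Tuba3b to 0.17.

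Within the tubulin pool the shares of the main isotypes overlapped between the groups over 6 libraries. Summed over the 10 members, tubulin took 0.347%, 0.327% and 0.239% of normalised counts in the controls and 0.214%, 0.222% and 0.3002% in exposed ovaries, with overlapping groups. Of the summed RPKM of 8 alpha genes, Tuba1b made up 44.2% ± 3.6 (SD, n = 3) in controls and 42.4% ± 4.5 in exposed ovaries, Tuba3a 22.7% ± 2.7 and 25.9% ± 4.0, and Tuba1a 22.3% ± 2.1 and 20.95% ± 0.46. Tuba1c, Tuba3b and Tuba4a made up 4.67%, 4.32% and 1.64% in controls and 3.69%, 5.42% and 1.57% in exposed ovaries. In each of these alpha shares the libraries of the groups overlapped. In replicates 1 and 2 alone, the Tuba3a share was 25.3% and 23.0% in controls and 26.7% and 29.5% in exposed ovaries. That of Tuba3b was 4.30% and 4.66% against 6.05% and 6.16%. Both were higher in these exposed libraries, and exposed replicate 3 brought the overlap (21.5% and 4.06%). The Tuba1a share went the other way, at 21.7% and 24.7% against 21.5% and 20.6%.

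Of the summed RPKM of 8 beta genes, Tubb5 made up 76.9% ± 1.1 in controls and 77.4% ± 0.72 in exposed ovaries, Tubb4b 12.6% and 12.0%, and Tubb2b 4.35% and 4.46%, again with overlap. Tubb3 was the exception, at 0.539%, 0.697% and 0.668% of beta tubulin in controls and 0.352%, 0.265% and 0.393% in exposed ovaries, with no overlap. The rank of Tuba3a depended on the length used. With the number of unique 50-base windows in place of exon length, Tuba3a made up 8.21% of alpha tubulin in controls and ranked 3rd behind Tuba1b (65.0%) and Tuba1a (21.2%), and Tubb5 made up 63.8% of beta tubulin beside 24.7% for Tubb4b. These windows stand for single reads although the reads were paired, so such shares can be too high for genes with few unique windows.

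**Figure D4:**
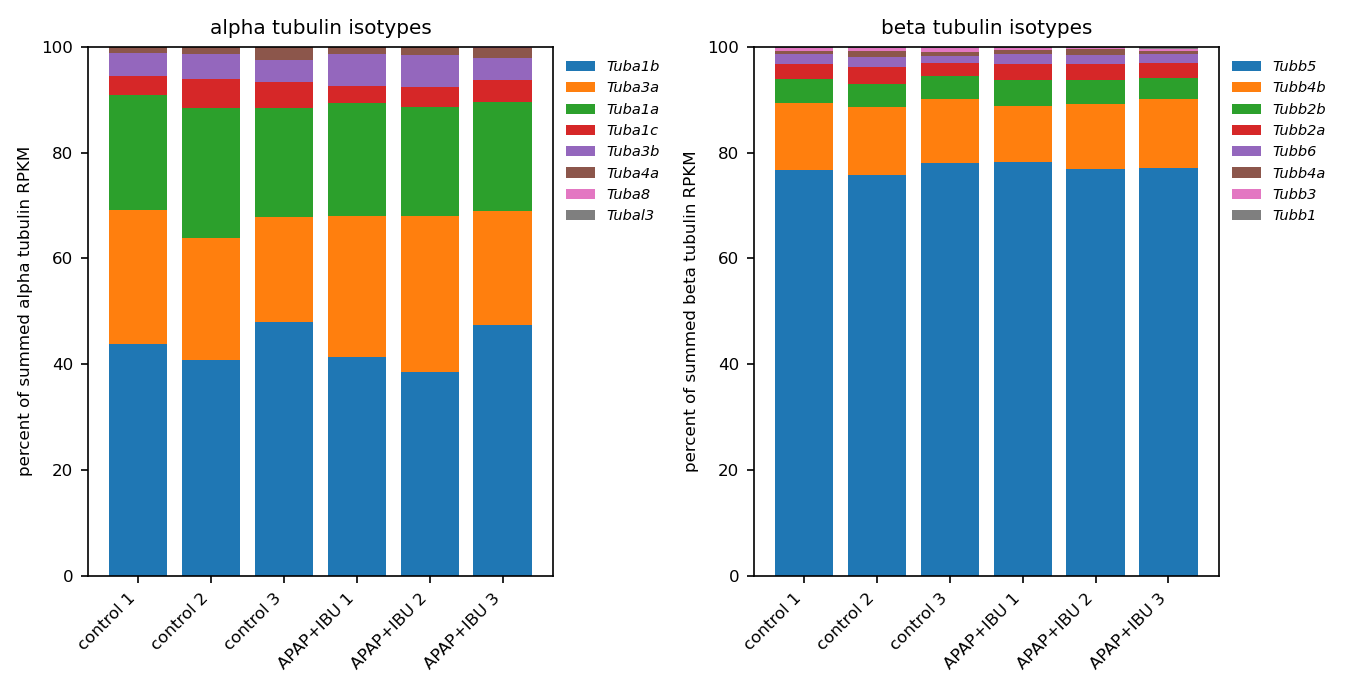
Share of each isotype in the summed RPKM of 8 alpha (left) and 8 beta (right) tubulin genes, in percent, for each of the 6 libraries as a stacked bar from 0 to 100. Tuba1b, Tuba3a and Tuba1a fill most of the alpha bars and Tubb5 75.8% to 78.3% of each beta bar. The shares of these 4 genes overlap between the control and APAP+IBU libraries.

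The other genes of the pathway were taken from lists. Over all 6 libraries none of them was called, and the counts that follow are for replicates 1 and 2, where 12.9% of tested genes were called lower and 14.2% higher. After the length and GC correction these shares were 7.61% and 5.27%. Of 10 further tubulin genes 9 were tested (Tubal3 was at 0.161 CPM or less), and 3 were called lower and 0 higher. They were Tubb2a and Tubb6, both beta isotypes, and Tubg1, the gamma tubulin that nucleates microtubules, at -0.57, -0.55 and -0.43 (adjusted p = 0.0109, 0.0167 and 0.0418), and after the length and GC correction 0 of the 9 were called. In the 6-library fit the extremes of this list were Tuba8 (-0.54, adjusted p = 0.722) and Tube1 (0.23, adjusted p = 0.724).

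The chaperones and cofactors that fold tubulin and join the dimer (the CCT ring, prefoldin, the TBC factors, and Ttc5, which reads the tag on the nascent chain) had 14 of 23 genes called lower and 3 higher, with a median of -0.35. After the length and GC correction 10 were called lower and 0 higher, with a median of -0.34. Their extremes over 6 libraries were Cct6b (-0.69, adjusted p = 0.692), a CCT subunit of the testis with 0.338 to 1.31 CPM, and Tbce (0.18, adjusted p = 0.757), which acts on alpha tubulin. In 7 of the 23 every exposed library was below every control library, against 5.92% of tested genes.

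The gamma tubulin complex, which caps and nucleates microtubules, went the other way, with 6 of 8 genes called higher and 1 lower, and a median of 0.45. None of the 8 was called after the length and GC correction, and the median was then 0.07. The extremes over 6 libraries were Mzt1 (0.30, adjusted p = 0.692) and Mzt2 (-0.19, adjusted p = 0.770), both small subunits of this complex. Of the genes for tubulin modifying enzymes, 3 of 25 tested were called lower and 5 higher (median 0.14), near the shares of all genes, with extremes over 6 libraries of Ttll11 (-0.75, adjusted p = 0.686), a glutamylase, and Agbl4 (0.57, adjusted p = 0.699), a deglutamylase. After the correction 0 were called lower and 3 higher. Of 31 microtubule-associated genes, 2 were called lower and 9 higher, with a median of 0.06, and the correction turned this to 3 lower and 0 higher with a median of -0.13. Their extremes over 6 libraries were Stmn3 (-0.99, adjusted p = 0.692), a stathmin of neurons, and Map9 (0.41, adjusted p = 0.698), a spindle and cilium protein.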

How the data were processed

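RNA of 13.5 dpc ovaries was sequenced as 6 libraries of pooled gonads. Per the methods and labels, the authors prepared stranded polyadenylated libraries, mapped reads to mm10 with TopHat2 2.0.14 and Bowtie2 2.1.0, counted them on genes of Ensembl release 86 with HTSeq 0.6.1 and deposited raw counts. The strand setting of the counting is not given in the sources used here. Groups came from the exposure label and replicate numbers from the titles. The members, all gene lists and the fit to replicates 1 and 2 alone were chosen with earlier results of these data known.

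From the deposited counts, genes were tested by edgeR 4.0.16 in R 4.3.3, with TMM normalisation, its expression filter (20167 genes kept from 6 libraries, 20633 from replicates 1 and 2) and the quasi-likelihood test. P-values were adjusted over all tested genes by the Benjamini-Hochberg method and called under 0.05. They measure the spread between pools. RPKM is CPM per kilobase of merged exons of GENCODE M21 (GRCm38), a later annotation than that of the counting. Symbols matched 48349 of 48709 IDs. The length and GC correction was a loess fit (span 0.3) per library, for 20103 genes. Log2 CPM used a prior count of 1. Coding sequences, protein identities and 50-base windows came from GENCODE M21 transcripts and promoters from RefSeq. Genes were named by rule, as all members, the extremes of each list over 6 libraries, and the 3 genes most correlated with Tuba3a, Tuba3b and Tubb3 (mean of at least 1 CPM); others are those counted in a list or a check. DESeq2 1.42.0 was an alternative, as were other normalisations, filters, a replicate block, the correction, other gene lengths and leaving out libraries. The unique windows as length and the block on replicates 1 and 2 were chosen after seeing the data. The fit was tested on simulated counts. Libraries of one group differed by more than sampling noise (chi-square per degree of freedom 18.8 to 158). One list extreme and some tail sequences are not reported here, nor were other data of the study analysed.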

Additional observations from a re-analysis of the deposited data

How the results depend on the processing

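Over all 6 libraries 0 of the 10 members were called in the edgeR test, and 1 was called with DESeq2, with and without its beta prior (Tubb3). Leaving out each library in turn gave 0 to 1 members, the 1 being Tuba1a without control replicate 3 (-0.72, adjusted p = 0.0460). Replicates 1 and 2 only gave 9 (9 also in DESeq2 with shrinkage) and, corrected for length and GC, 5. The cause of these differences was not tested. The log2 fold change of Tuba3a over 6 libraries turned to 0.036 with the length and GC correction and to 0.041 with the replicate block added to it. For Tuba3b it turned to 0.15 and 0.14 there and to 0.17 in replicates 1 and 2 with the correction, and leaving out each library gave -0.34 to 0.033, positive without control replicate 1 or 2. The deviations of same-numbered pools were hardly correlated (correlations -0.069, -0.015 and -0.044) and no label ties the numbers to a shared day, so the samples were not treated as pairs. With the replicate block 0 members were called over 6 libraries and 8 in replicates 1 and 2, where Tuba3a had an adjusted p of 0.0573. In those 4 libraries the block left 9 of 23 folding genes lower and 0 higher. Of 31 microtubule-associated genes the block left 2 lower and 5 higher. Upper quartile normalisation gave 15 folding genes lower and 0 higher. Of all 20633 tested genes the block called 1731 lower and 2086 higher, and upper quartile normalisation 3017 and 2651. DESeq2 with shrinkage called 2837 lower and 2864 higher of the 31764 genes it fitted there. The share of Tuba3a in alpha tubulin was 18.9% (control) and 21.7% (APAP+IBU) with coding length and 8.21% and 9.71% with unique windows. For Tubb5 in beta tubulin the values were 84.1% and 84.6%, and 63.8% and 64.7%, and 78.2% in APAP+IBU ovaries with the longest transcript. Over the members' log2 fold changes and all settings, 201 values kept their direction and side of the threshold, 26 passed it only under the alternative, 5 lost it and 8 turned direction. Some fits to replicates 1 and 2 enter this tally as alternatives to both results, so its entries are not independent. The lowest counts were those of Tubb3, with 121 to 378 per library, and shared sequence limits the Tuba1 genes.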
